A study of Mesostigma viride with 16 samples.

Results

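RNA-seq libraries of *Mesostigma viride* strain NIES-296 were compared to describe which genes rise or fall when this alga is moved to alkaline medium: 2 High pH libraries, from cells kept at pH 9.0 for 24 h, and 2 Control 2 libraries, from untreated cells that received the same volume of medium C at pH 7.5. They are 4 of the 15 libraries with values in hand, and all are poly(A) RNA of wild-type cultures with no deletion, transgene or tag. Every culture was 24 days old and had grown in medium C at 23 °C under 10 h of light and 14 h of dark per day. The pH was raised with NaOH, and 2 Low pH libraries (pH 6.0, 24 h, set with Tris-HCl) shared the Control 2 libraries. The other groups are Control 1 (untreated, 1 library, replicate 2), darkness, high light, cold (12 °C) and high temperature (32 °C), with 2 libraries each. Replicates are given as biological, but nothing says whether flasks were started separately, so p-values measure only the spread between these libraries. The point of the light-dark cycle at which cells were harvested is not given in the sources used here.

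*M. viride* is a unicellular freshwater alga with a pair of flagella and a coat of scales, and it branches near the base of the streptophytes, the lineage that includes land plants. In alkaline water dissolved inorganic carbon is mostly bicarbonate and carbonate rather than CO2, and metals such as iron become less soluble, so algae placed there have to obtain carbon and metals in other forms and to hold their cytoplasm near neutral. Green cells entering mitosis build cyclin-dependent kinase complexes with A- and B-type cyclins, and then use Aurora kinases, kinesin motors and microtubule bundling proteins for the spindle and for cytokinesis. Genes are named here by their matches in better known species, above all Arabidopsis, and the roles given were established there.

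Expression was deposited as FPKM, read fragments scaled to transcript length and library size, for 24431 genes. The sum over genes was 611568 to 640049 in the 4 libraries. Depth per library is unknown in absolute terms. The spacing of values under 0.1 FPKM put Control 2 replicate 2 at 1.02, High pH replicate 1 at 0.93 and High pH replicate 2 at 0.873 of the depth of Control 2 replicate 1. The High pH estimates are uncertain, as a second peak of the spacing lay at 1.86 and 1.74. The chosen peak was 1.41 and 1.44 times as high as that one. Across the 14297 genes tested, those reaching 0.5 FPKM in 2 or more libraries, log2(FPKM + 0.1) correlated at 0.984 between the High pH replicates, at 0.987 between the Control 2 replicates and at 0.9734 to 0.9745 between the groups (Pearson, across genes, which are not independent replicates).

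At high pH 322 of the 14297 tested genes (2.25%) were differentially expressed relative to Control 2, meaning that they changed by 2-fold or more and that the limma p, adjusted by Benjamini-Hochberg over all of them, was no higher than 0.01. Of these, 113 were higher (0.790% of tested genes) and 209 were lower (1.46%), so that 64.9% of the changes were falls. That split depended on how the libraries were scaled. Over the 14297 genes the log2 fold change had a median of -0.10, and quantile normalization moved it by more than 0.1, to 0.01, with 149 genes higher and 139 lower. Median-of-ratios scaling gave 134 higher and 142 lower, and scaling to equal totals gave 99 higher and 245 lower. With no minimum fold, 2230 genes (15.6%) passed the same adjusted p, 808 of them higher (5.65%) and 1422 lower (9.95%).

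The 113 higher genes had a median log2 fold change of 1.25 (quartiles 1.11 and 1.61), and the 209 lower genes one of -1.22 (quartiles -1.46 and -1.08). A change of at least 4-fold was reached by 9 higher and 8 lower genes. Within 0.1 log2 of the threshold lay 85 differentially expressed genes on its inner side and 111 genes past the adjusted p on its outer side. The higher genes had a median level of 17.6 FPKM over the 4 libraries and the lower genes one of 5.91 FPKM, against 7.85 FPKM for all tested genes. In all 322 the 2 High pH values lay outside the 2 Control 2 values, as they did in 64.6% of all tested genes.

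**Figure D1:**
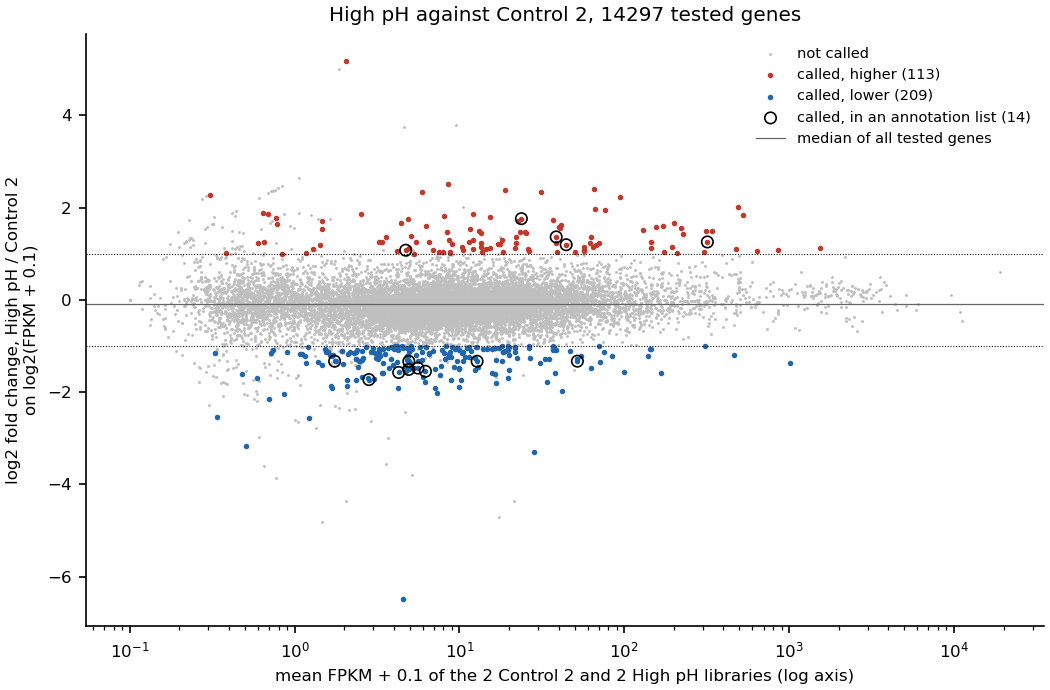
Each point is a tested gene, placed by its mean level in the 4 libraries (FPKM + 0.1, log axis) and its log2 fold change of high pH over Control 2; dotted lines mark 2-fold. The 113 genes called higher and 209 called lower are coloured, the 14 in an annotation list are ringed, and 85 of the 322 lie within 0.1 log2 of those lines.

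The 6 annotation lists of the study (cell division and cell wall, transcription factors, genes with selected GO terms, epigenetic processes, photosynthesis and phytohormones) hold 451 genes, of which 419 were tested. Of these, 14 (3.34%) were differentially expressed, 5 higher and 9 lower, beside 2.25% of all tested genes. The other 308 differentially expressed genes were in no list. At any fold 86 listed genes (20.5%) passed the adjusted p, beside 15.6% of all tested genes, 26 of them higher and 60 lower. Where a gene is named below although it was under 2-fold, outside the 10 largest rises and falls and outside the photosynthesis and transport genes, it was chosen after its values were seen.

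Genes of mitosis and cytokinesis made up 6 of the 9 listed genes that fell. The list of cell division and cell wall genes was the largest, with 152 of the 419 tested listed genes. In limma 0 were higher and 6 lower (3.95%) at 2-fold, beside 0.790% and 1.46% of all tested genes. At any fold 19 were lower and 5 were higher (15.8%, beside 15.6%), a share near the background. The median log2 fold change of the list, -0.11, was close to the -0.10 of all tested genes. By role, where no difference was tested, the counts stand beside 9.95% of all tested genes lower and 5.65% higher. Of 12 tested kinesins 4 fell and 0 rose (median -0.34), and of 26 cyclins, kinases and other mitotic regulators 7 fell and 1 rose (median -0.17). Of 35 genes of microtubules and their nucleation 4 fell and 0 rose (median -0.22), a share of 11.4% that is near the background. Of 47 vesicle traffic genes 2 fell and 3 rose (median 0.00). In limma 0 of 7 actin, formin and myosin genes and 0 of 8 cell wall glycosyltransferases passed the adjusted p, and in each of these roles 1 gene had an unadjusted p under 0.05. With the median of the gene ratios as the scale the list had 17 genes lower and 11 higher, and the same number, 6, fell by at least 2-fold. The lists come from the study, and their choice is not independent evidence of a direction.

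**Figure D2:**
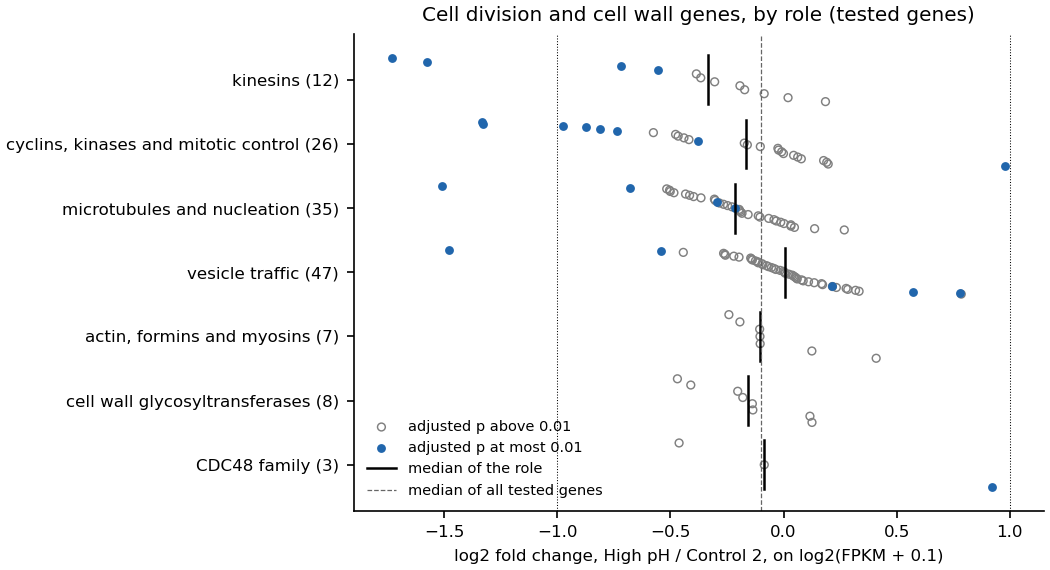
Log2 fold change (x axis) of tested cell division and cell wall genes by role, filled where the adjusted p was at most 0.01, with a bar at each role's median and a dashed line at that of all tested genes. Kinesins reached the lowest value, -1.73, and vesicle traffic genes had a median of 0.00.

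The deepest fall in the list belonged to Mv00864, a kinesin matched to HINKEL and TETRASPORE, which in Arabidopsis activates the kinase cascade that drives cytokinesis. It was at 4.34 and 4.14 FPKM in the Control 2 libraries and at 1.26 and 1.16 FPKM in the High pH libraries, a log2 fold change of -1.73 (SE 0.14, limma adjusted p = 1.09e-05). Mv10329 is matched to the ANP kinases, which that kinesin binds, and fell from 2.55 and 2.26 FPKM to 0.96 and 0.832 FPKM (log2 -1.33, SE 0.22, limma adjusted p = 0.00132). Both genes had separate groups at low levels, and the call for Mv10329 was lost without High pH replicate 2 (limma adjusted p = 0.0139), without Control 2 replicate 1 (0.0162) and with a pseudocount of 1. The next members of the Arabidopsis cascade moved less. The MKK6 match Mv05250 had a log2 fold change of -0.17 (limma adjusted p = 0.432). One gene matched to MPK4 and MPK6, Mv07749, fell by 0.38 on the log2 scale (limma adjusted p = 0.0084), and the other, Mv07867, was at -0.10 (limma adjusted p = 0.303). Mv09783 is matched to the MAP65 proteins, which bundle antiparallel microtubules and are targets of this cascade. It fell from 7.42 and 6.96 FPKM to 2.39 and 2.53 FPKM (log2 -1.51, SE 0.10, limma adjusted p = 2.81e-06).

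The other 3 called genes of this list belong to the spindle, the division site and the cell cycle. Mv09724, matched to the kinesin RSW7 that slides spindle microtubules apart, fell from 6.25 and 6.37 FPKM to 1.91 and 2.21 FPKM (log2 -1.57, SE 0.17, limma adjusted p = 5.68e-05). Mv18231, matched to DRP5A, a dynamin-related protein of cytokinesis, fell from 7.74 and 8.55 FPKM to 2.67 and 3.05 FPKM (log2 -1.48, SE 0.12, limma adjusted p = 9.53e-06). Mv06860, matched to the mitotic cyclins CYCA1;1 and CYCB1;2, fell from 17.2 and 19.3 FPKM to 7.43 and 6.93 FPKM (log2 -1.33, SE 0.12, limma adjusted p = 2.44e-05). In each of these genes both High pH libraries were below both Control 2 libraries. The groups were likewise separate in all 322 called genes and in 64.6% of all tested genes.

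Smaller falls were found in other mitotic genes. Both genes matched to the Aurora kinases AUR1 and AUR2, which act on chromosomes and the spindle, fell: Mv07940 from 15.8 and 15.6 FPKM to 8.27 and 7.62 FPKM (log2 -0.98, limma adjusted p = 8.39e-05) and Mv02252 from 7.42 and 8.49 FPKM to 4.93 and 3.73 FPKM (log2 -0.87, limma adjusted p = 0.00246). The second did not pass without High pH replicate 2 (limma adjusted p = 0.0259) or without Control 2 replicate 1 (0.0102) or 2 (0.0273), and the first did not pass with all untreated libraries as reference (0.0205). The CYCA1;1 match Mv18326 fell by 0.81 on the log2 scale, the kinesin Mv22247 (ATK1 and ATK5, minus-end motors of the spindle) by 0.72 and Mv17915 (TPX2, a spindle assembly factor) by 0.68. The 2 genes matched to CDKA;1 and CDKB2;1, the cyclin-dependent kinases, moved in opposite directions. Mv14758 rose from 8.77 and 9.87 FPKM to 17.1 and 19.9 FPKM (log2 0.98, SE 0.09, limma adjusted p = 2.31e-05), and Mv18794 fell by 0.74 on the log2 scale (limma adjusted p = 0.000842). How reads shared by such related genes were assigned, and whether strand was used in counting, is not given in the sources used here. In bulk RNA, fewer dividing cells and less RNA per dividing cell cannot be told apart.

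Among the rises, Mv00847 is matched to CDC48, an AAA-ATPase that extracts proteins for degradation, and was among the most abundant named genes. It was at 104 and 101 FPKM in Control 2 and at 199 and 191 FPKM at high pH, just under 2-fold (log2 0.92, SE 0.04, limma adjusted p = 7.63e-08). The other 2 of the 3 tested CDC48 family genes were below 0 on the log2 scale, the lower at -0.46, and did not pass. Mv13915, matched to DRP1A and its relatives, dynamins of membrane traffic, rose by 0.78 on the log2 scale (limma adjusted p = 0.000972), but did not pass without High pH replicate 1 (limma adjusted p = 0.0128) or Control 2 replicate 2 (0.0109). Mv20673, matched to CHER1, a transporter-like protein of sieve plate formation in Arabidopsis, was higher by 0.57 (limma adjusted p = 0.000179).

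**Figure D3:**
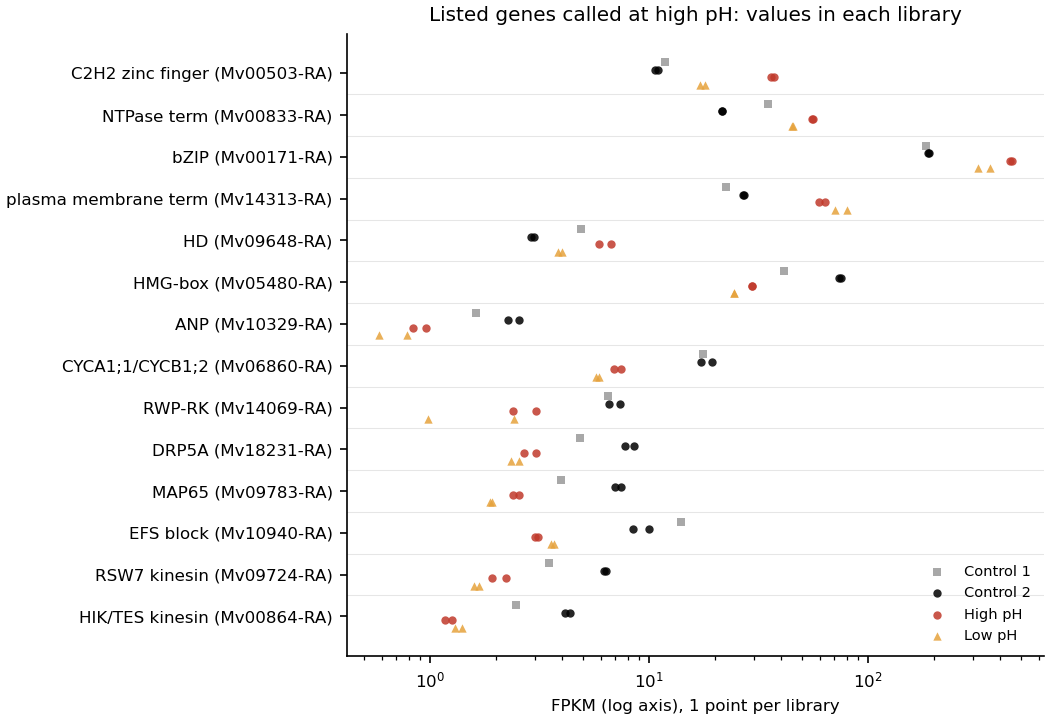
FPKM (log axis) of the 14 listed genes called at high pH, with a point for each Control 1, Control 2, High pH and Low pH library. In all 14 the 2 High pH points lie outside the 2 Control 2 points, as in all 322 called genes and 64.6% of all tested genes.

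Transcription factors held 3 of the 5 listed genes that rose. Of 112 tested factors 3 were higher and 2 lower at 2-fold (4.46%, beside 2.25% of all tested genes). At any fold 9 were higher and 15 lower (21.4%, beside 15.6%), with a median log2 fold change of -0.18. With the median of the gene ratios as the scale that count turned to 17 higher and 7 lower, so the balance of directions over the whole list followed the scaling. The C2H2 zinc finger gene Mv00503 rose most, from 10.9 and 10.6 FPKM to 37.1 and 36.1 FPKM (log2 1.76, SE 0.06, limma adjusted p = 2.8e-08). The bZIP gene Mv00171 was the most abundant of the listed genes called, at 190 and 187 FPKM in Control 2 and 454 and 446 FPKM at high pH (log2 1.25, SE 0.05, limma adjusted p = 7.63e-08). The homeodomain gene Mv09648 rose from 2.90 and 2.98 FPKM to 5.90 and 6.72 FPKM (log2 1.07, SE 0.09, limma adjusted p = 1.59e-05), and its 2-fold call was lost without High pH replicate 2, where the log2 fold change was 0.98, with a pseudocount of 1, and with all untreated libraries as reference, where it was 0.84. Control 1 was at 4.87 FPKM for this gene. The groups did not overlap in any of these 3 genes, which held for all 322 called genes and for 64.6% of all tested genes.

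By family, 4 of 10 tested bZIP genes and 3 of 6 homeodomain genes passed the adjusted p upward, against 1 and 0 downward, beside 5.65% of all tested genes higher and 9.95% lower. These families are small, and no test of a family was run. A second bZIP gene, Mv00647, rose by 0.81, a second homeodomain gene, Mv04131, by 0.69 and a second C2H2 gene, Mv12024, by 0.58 on the log2 scale. RWP-RK genes, a family known in plants and algae for nitrogen responses and gamete formation, had 3 of 5 lower and 0 higher, although with median-of-ratios scaling 1 was lower and 1 higher. Mv14069 of this family fell from 6.58 and 7.32 FPKM to 3.05 and 2.38 FPKM (log2 -1.33, SE 0.31, limma adjusted p = 0.00875). This was the least certain of the 14 calls and was lost in 11 of the 21 alternatives run, among them each library left out (limma adjusted p from 0.0242 without High pH replicate 1 to 0.0637 without High pH replicate 2). The HMG-box gene Mv05480, of a family of DNA-bending proteins, fell from 75.3 and 73.3 FPKM to 29.4 and 29.6 FPKM (log2 -1.33, SE 0.06, limma adjusted p = 2.04e-07). In the Control 1 library this gene was at 41.1 FPKM. The CXC gene Mv20076 fell by 0.97 and the GARP gene Mv09204 by 0.81, the latter not without High pH replicate 1 (limma adjusted p = 0.0114) or Control 2 replicate 1 (0.0138). Among 4 heat shock factors 0 passed the adjusted p in limma, and 3 had an unadjusted p under 0.05.

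Of 45 tested genes of epigenetic processes 1 was called (2.22%, beside 2.25% of all tested genes), and 6 fell and 2 rose at any fold (17.8%, beside 15.6%), so the list as a whole was near the background. Mv10940, placed with EFS, the Arabidopsis methyltransferase of histone H3 lysine 36, fell from 8.40 and 9.96 FPKM to 3.02 and 3.1 FPKM (log2 -1.55, SE 0.11, limma adjusted p = 4.54e-06). Mv02735, placed with ATX1, a methyltransferase of histone H3 lysine 4, fell from 4.32 and 4.43 FPKM to 2.0 and 2.33 FPKM (log2 -0.99, limma adjusted p = 0.00144), and did not pass without High pH replicate 1 (0.0167) or without Control 2 replicate 1 (0.0122) or 2 (0.0137). Mv14270, placed with VIM1, which maintains DNA methylation, fell by 0.82, and Mv09173, matched to the DNA methyltransferases CMT3 and MET1, by 0.72. Mv22134, placed with the arginine methyltransferase PRMT1A, rose from 5.25 and 5.09 FPKM to 9.87 and 10.9 FPKM (log2 0.99, SE 0.12, limma adjusted p = 0.000153).

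Photosynthesis and carbon genes changed by less than 2-fold. Of 11 tested, 0 were called in limma and 7 had an unadjusted p under 0.05. The adjusted p was passed by 6 (54.5%, beside 15.6% of all tested genes), with 2 higher and 4 lower. Mv04628, the ADG1 match for a subunit of the first enzyme of starch synthesis, fell from 135 and 119 FPKM to 77.3 and 81.5 FPKM (log2 -0.68, SE 0.07, limma adjusted p = 3.17e-05). Mv15086, the me2 match for malic enzyme, which releases CO2 from malate, fell from 36.3 and 33.9 FPKM to 21.3 and 23.4 FPKM (log2 -0.65, SE 0.07, limma adjusted p = 7.26e-05). Malate dehydrogenase (Mv09135) and one aspartate aminotransferase (Mv14894) each fell by 0.31, and neither passed without High pH replicate 2 (limma adjusted p = 0.0133 and 0.034), without Control 2 replicate 1 (0.0161 and 0.0394) or with median-of-ratios scaling (0.0841 and 0.11). In the other direction, Mv14619, the GGT1 match for a photorespiratory aminotransferase, rose from 20.2 and 18.4 FPKM to 28.1 and 29.3 FPKM (log2 0.57, SE 0.09, limma adjusted p = 0.00117). Mv13914, matched to HCF173, needed to translate the photosystem II protein D1, rose by 0.30 (limma adjusted p = 0.00682). GGT1 did not pass without High pH replicate 2 (limma adjusted p = 0.0124) or Control 2 replicate 2 (0.0149), and HCF173 passed only without Control 2 replicate 1 of the 4 single libraries left out (0.0343, 0.038 and 0.0575 for the others).

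The remaining carbon genes did not pass. Phosphoenolpyruvate carboxylase (Mv20570), which fixes bicarbonate, was at 32.8 and 31.5 FPKM in Control 2 and at 36.2 and 36.3 FPKM at high pH (log2 0.17, limma adjusted p = 0.0362), and was past the threshold in 4 of the 21 alternatives, which were 2 looser thresholds and upper quartile and quantile scaling. FTSH2 (Mv19820), a thylakoid protease of photosystem II repair, was at 0.04, the second aspartate aminotransferase (Mv13545) at 0.05, the dicarboxylate carrier DTC (Mv04123) at 0.08 and the photoreceptor CRY1 (Mv08907) at -0.11 on the log2 scale. Pyruvate phosphate dikinase (Mv07582) was below the filter, at no more than 0.0448 FPKM in these libraries.

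Of 23 tested genes with GO terms of the plastid and photosynthesis, 7 were lower and 2 higher at any fold, beside 9.95% and 5.65% of all tested genes, and 0 were called in limma (15 had an unadjusted p under 0.05, 0 of them at 2-fold). With median-of-ratios scaling 3 were lower and 2 higher. Mv20456, annotated to the light reactions, fell from 7.11 and 7.92 FPKM to 4.79 and 3.88 FPKM (log2 -0.78, limma adjusted p = 0.00287). It stayed past the threshold in 15 of the 21 alternatives. Mv09805, annotated to ferredoxin-NADP+ reductase activity, fell from 71.2 and 70.9 FPKM to 44.2 and 39.4 FPKM (log2 -0.77, limma adjusted p = 8.96e-06). Mv10383, annotated to the thylakoid membrane, fell by 0.64 from a mean of 251 FPKM, and Mv21781, also annotated to the light reactions, by 0.45 from 120.2 FPKM. Mv18411, annotated to the chloroplast, rose by 0.58, though not without High pH replicate 1 (limma adjusted p = 0.026) or Control 2 replicate 2 (0.0291). The 2 listed GO genes that were called are known only by broad terms: Mv00833, a nucleoside-triphosphatase, rose from 21.6 and 21.5 FPKM to 55.7 and 55.4 FPKM (log2 1.36, SE 0.07, limma adjusted p = 3.66e-07), and Mv14313, of the plasma membrane, from 27.0 and 26.9 FPKM to 63.6 and 59.9 FPKM (log2 1.19, SE 0.08, limma adjusted p = 2.22e-06). Neither pair of groups overlapped, as in all 322 called genes and 64.6% of all tested genes. Under 2-fold, Mv00722, also known only by broad terms, fell from 25.4 and 25.2 FPKM to 15.8 and 13.6 FPKM (log2 -0.79, limma adjusted p = 4.78e-05).

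Ion and solute transport genes of the lists changed little. Of 8 tested, 0 were called in limma and 4 had an unadjusted p under 0.05. Past the adjusted p 1 rose and 1 fell (25%, beside 15.6% of all tested genes). Mv19732, annotated to magnesium transport, rose from 18.1 and 16.8 FPKM to 22 and 22.6 FPKM (log2 0.35, limma adjusted p = 0.00335), and did not pass without High pH replicate 1 (0.0169) or 2 (0.0269) or Control 2 replicate 2 (0.034). Mv11539, annotated to nucleotide-sugar transport in the Golgi, fell by 0.42 (limma adjusted p = 0.000355), but did not pass with median-of-ratios scaling (0.0318). The other 6 had log2 fold changes from -0.46 (Mv00935) to 0.19 (Mv22409), and 2 more (Mv11087 and Mv21477) were below the filter. Of 14 phytohormone genes 0 were called in limma (5 had an unadjusted p under 0.05). The largest change there was in ABA1 (Mv14100), zeaxanthin epoxidase of the xanthophyll cycle and abscisic acid synthesis, which fell by 0.60 (limma adjusted p = 3.08e-05), and the kinase gene SnRK2.1 (Mv07141) rose by 0.39 (limma adjusted p = 0.0014).

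Low pH shared the Control 2 libraries, so a high or low value in those 2 libraries enters both comparisons. Against Control 2, 224 genes (1.57%) were called at low pH, 95 higher (0.664%) and 129 lower (0.902%). In the direct contrast of high with low pH, which does not use Control 2, 115 genes (0.804%) were called, 46 higher (0.322%) and 69 lower (0.483%) at high pH. Of the 322, 307 lay on the same side of Control 2 at low pH, and 69 of these were further from it than at high pH. The share of all tested genes on the same side was not counted. The difference between both pH treatments passed the adjusted p for 107 of the 322, beside 4.47% of all tested genes, and did not for 215. It was itself called for 40. Of these 40, 26 had risen and were higher than at low pH, 11 had fallen and were lower than at low pH, and 3 had risen but less than at low pH. The 322 were chosen on values of the same High pH libraries that enter this contrast. Shares above those of all tested genes, and these directions, are therefore partly built in.

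**Figure D4:**
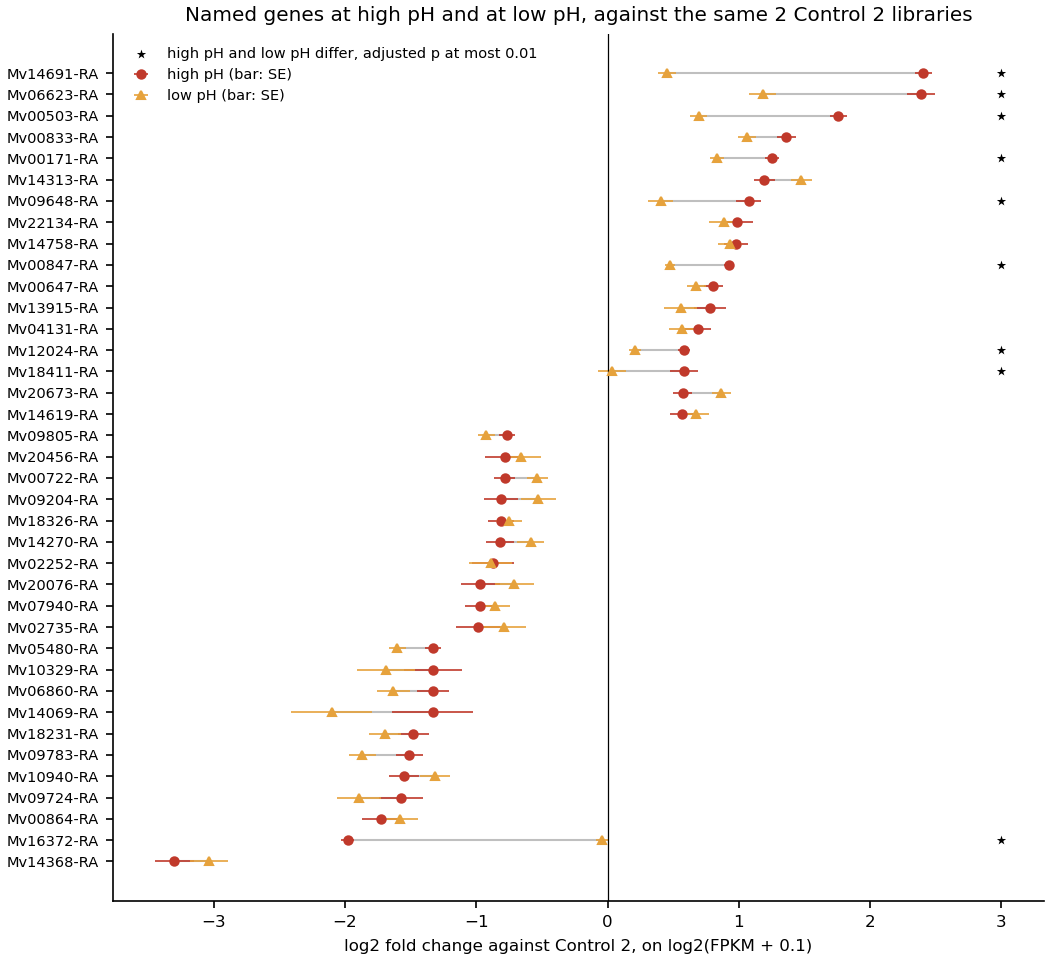
Log2 fold change (x axis) of named genes at high pH (circles) and at low pH (triangles), both over the shared Control 2 libraries, with bars for the SE and stars where both pH levels differed at an adjusted p of at most 0.01. Mv16372 fell by 1.98 at high pH and was at -0.04 at low pH, while Mv14368 was at -3.30 and -3.04.

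Of the 152 tested cell division and cell wall genes 2 passed the adjusted p between high and low pH, beside 4.47% of all tested genes. The 6 called genes were not among these 2. All 6 were also called lower at low pH, against the same Control 2 libraries, beside 0.902% of all tested genes. All but Mv00864 fell further there, for example Mv09724 (-1.89 on the log2 scale) and Mv06860 (-1.63). The HINKEL match Mv00864 changed by -1.58 at low pH, with a high minus low difference of -0.14 (95% interval -0.46 to 0.17), and MAP65 (Mv09783) by -1.87, with a difference of 0.36 (0.13 to 0.59, limma adjusted p = 0.0564). That the 6 did not pass between high and low pH in limma does not show that they acted alike. Some rising genes, chosen for high values at high pH, were higher there than at low pH, and others were not. Mv00833 did not pass (difference 0.30, limma adjusted p = 0.0228). Mv14313 was at 70.6 and 79.8 FPKM at low pH, above its High pH values (difference -0.28, limma adjusted p = 0.0511). The C2H2 gene Mv00503 was at 17.9 and 17.0 FPKM at low pH, 1.06 log2 units below high pH (0.92 to 1.21, limma adjusted p = 1.72e-06). The homeodomain gene Mv09648 was at 3.99 and 3.85 FPKM (difference 0.67, limma adjusted p = 0.00107), CDC48 (Mv00847) at 143 and 142 FPKM (difference 0.45, limma adjusted p = 3.36e-05) and the bZIP gene Mv00171 at 360 and 316 FPKM (difference 0.42, limma adjusted p = 0.000569).

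In carbon metabolism the malic enzyme gene Mv15086 was lower at high pH than at low pH, where it was at 32 and 33.6 FPKM (difference -0.55, -0.71 to -0.40, limma adjusted p = 0.000579). FTSH2 (Mv19820) fell at low pH to 97.9 and 94.5 FPKM and was at 135 and 129 FPKM at high pH (difference 0.46, limma adjusted p = 0.000715). Malate dehydrogenase (Mv09135) fell further at low pH (difference 0.33, limma adjusted p = 0.00225).

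All 6 called cell division genes had their highest mean of the 8 groups in Control 2, against which they were chosen as lower. Control 1, the other untreated group, has 1 library here. MAP65 (Mv09783) was at 3.96 FPKM in it, RSW7 (Mv09724) at 3.49 FPKM, DRP5A (Mv18231) at 4.82 FPKM, HINKEL (Mv00864) at 2.46 FPKM, ANP (Mv10329) at 1.62 FPKM and the cyclin Mv06860 at 17.5 FPKM. Each of these lay between the High pH and the Control 2 means, and the cyclin value was within the range of the 2 Control 2 libraries. Between both untreated groups 485 genes (3.39%) were called, 25 higher (0.175%) and 460 lower (3.22%) in Control 2. With 1 Control 1 library the spread comes from the other groups, so a difference between the groups and the deviation of that library cannot be told apart, and the part of this in the pH comparison was not tested.

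**Figure D5:**
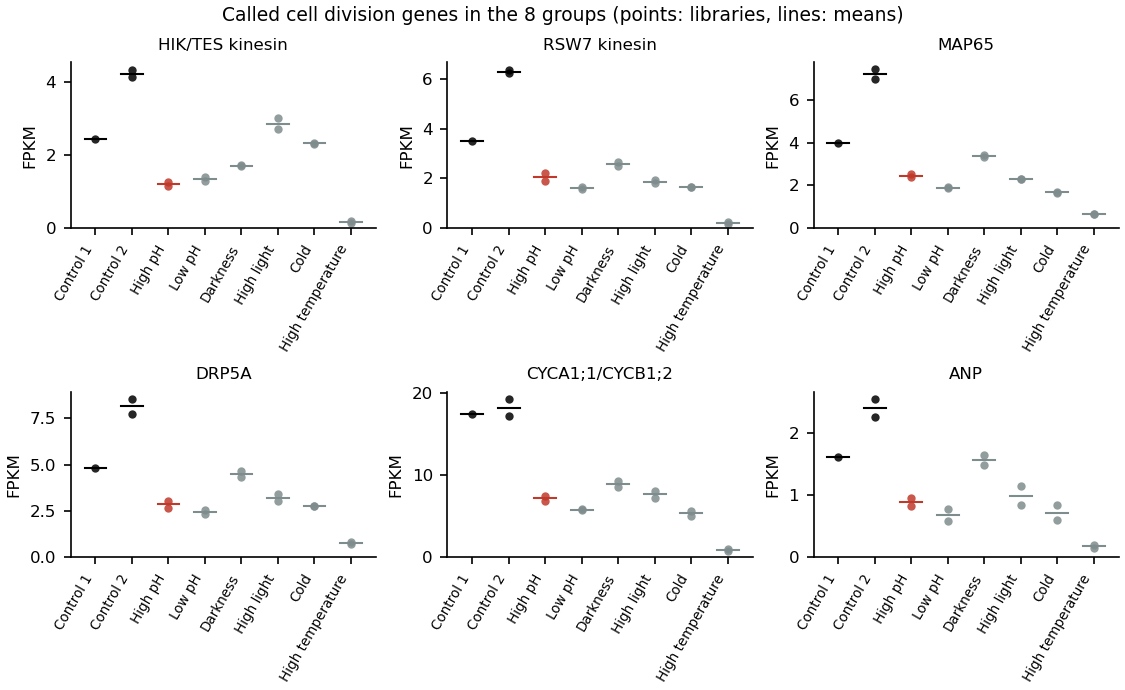
FPKM (linear axis from 0) of the 6 called cell division genes in each of the 8 groups, with points for libraries and lines for group means. Control 2 has the highest mean for all 6 genes, and high temperature the lowest.

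The other treatments were set against the single Control 1 library, so its own deviation enters all of these comparisons and the spread comes from the other groups. There, 61 of the 113 rising genes (54%) were also called higher at high temperature, beside 6.83% of tested genes, 49 (43.4%) in cold, beside 3.76%, 34 (30.1%) in high light, beside 3.55%, and 13 (11.5%) in darkness, beside 1.13%. In darkness more of the rising genes, 18 (15.9%), were called lower, beside 4.02% of tested genes. As a share of the other lists, these were 6.24% of the genes higher at high temperature, 9.11% in cold, 6.71% in high light and 8.02% in darkness. Of the 209 falling genes 178 (85.2%) were called lower at high temperature, where 55.3% of all tested genes were, 105 (50.2%) in cold, beside 8.28%, 52 (24.9%) in high light, beside 2.26%, and 44 (21.1%) in darkness, beside 4.02%. They made up 2.25%, 8.87%, 16.1% and 7.65% of those lists. High pH gave the highest mean of the 8 groups for 21 rising genes (18.6%) and the lowest for 20 falling genes (9.57%), beside 4.51% and 3.85% of all tested genes, and the members were chosen for high or low values there. The bZIP gene Mv00171 was among the former, at a mean of 450.0 FPKM against 338 FPKM at low pH and 266 FPKM in cold. The C2H2 gene Mv00503 was higher still at high temperature, at 83.9 FPKM.

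Most called genes have no name in the annotation lists, and 4 of them, chosen as the largest changes at 10 FPKM or more, are given by identifier. Mv14691 rose from 21.8 and 19.9 FPKM to 111 and 111 FPKM (log2 2.41, SE 0.07, limma adjusted p = 5.7e-09), was at 27.9 and 29.1 FPKM at low pH and reached a mean of 5526 FPKM at high temperature. Mv06623 rose from 6.45 and 5.46 FPKM to 30.4 and 32.6 FPKM (log2 2.39, SE 0.11, limma adjusted p = 9.9e-08) and had its highest mean, 106 FPKM, in darkness. Mv14368 fell from 52.1 and 50.3 FPKM to 5.20 and 5.02 FPKM (log2 -3.30, SE 0.15, limma adjusted p = 9.52e-08), with 6.11 and 6.18 FPKM at low pH and 19.6 FPKM in Control 1. Mv16372 fell from 65.9 and 68.6 FPKM to 16.8 and 17.2 FPKM (log2 -1.98, SE 0.05, limma adjusted p = 5.09e-09) and was at 65.2 and 65.7 FPKM at low pH, a difference between both pH levels of -1.94 log2 units (-2.05 to -1.83, limma adjusted p = 3.85e-09). The groups were separate in all 4, by the rule that chose them, and Mv16372 separated the pH levels while Mv14368 was low at both. Mv16372 was lower still in darkness and at high temperature, at means of 10.8 and 9.50 FPKM. Its means in high light and cold were 112 and 147 FPKM.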

How the data were processed

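Poly(A) RNA was sequenced as paired ends from stranded libraries. The deposited values are FPKM per gene, which the authors computed with Cufflinks from HISAT2 2.1.0 alignments (the submitters' processing notes also name FastQC and DESeq2). Columns of the authors' own comparisons were not used. Read counts were not analysed here, so depth per gene is unknown and no count test was run. Genes reaching 0.5 FPKM in 2 or more of 15 libraries were kept, and log2(FPKM + 0.1) was fitted in limma 3.58.1 (R 4.3.3) with 1 mean per condition and 7 residual degrees of freedom. The script was tested on simulated data. A gene was called at an FDR of at most 0.01 over all tested genes and at least 2-fold, the study's thresholds. Fold changes on this scale understate those of low genes.

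Named genes were all called list genes, the 10 largest rises and the 10 largest falls under 2-fold among list genes past the FDR, all photosynthesis and transport genes, and the 2 largest rises and falls in no list. The members and lists were chosen with earlier results of these data known. Alternatives covered the pseudocount, filter, thresholds, scaling, reference, libraries fitted, variance prior, replicate block and each library left out. Replicates with the same number in High pH and Control 2 did not deviate together, which cannot show whether the samples were paired.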

Additional observations from a re-analysis of the deposited data

How the results depend on the processing

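Against the 322 genes called at high pH, a pseudocount of 1 gave 198 and no minimum fold 2230, and leaving out each library in turn gave 260 (without Control 2 replicate 1) to 304 (without High pH replicate 2). The 2230 genes past the adjusted p became 1144 when only the 4 compared libraries were fitted and 1271 to 1361 when 1 library was left out. The 14 called list genes became 86 with no minimum fold and 13 to 18 with 1 library left out. The 115 genes called between high and low pH became 639 with no minimum fold and 91 to 116 with 1 library left out. Replicates with the same number in High pH and Control 2 showed no shared deviation (correlation -0.0553 over 2 pairs). With 2 replicates per group this cannot show whether the samples were paired. A replicate block gave 309 calls, 2036 genes past the adjusted p, 13 list genes and 114 calls between high and low pH. Of 309 block calls 308 were among the 322. The share of falls among calls was 64.9%, and 71.2% with equal totals, 53.4% with upper quartile, 51.4% with the median of the gene ratios, 48.3% with quantile normalization, 57.1% with a pseudocount of 1 and 71% with all untreated libraries as reference. Of 1176 values of named genes, 1101 stayed on the same side of their threshold, 70 were past it only in the main fit, 5 only in the alternative and 0 reversed. A reversal was counted only where the gene passed in the main fit or in the alternative. Among genes that passed in neither, some changed sign, such as Mv22409 (log2 from -0.15 to 0.54). The 2-fold calls lost were those of Mv14069, Mv09648 and Mv10329, and the other losses were of genes under 2-fold, among them the CYCA1;1 match Mv18326 with all untreated libraries as reference (limma adjusted p = 0.0114). With 2 libraries per group and no counts, small changes of genes under a few FPKM could not be resolved.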
